A study of Bos taurus with 24 samples.

Results

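The genes described here are 40 bovine zinc finger genes of 24616 genes in the deposited tables. They were chosen by symbol: every gene whose name in the copies of the study's 2 lists of compared genes starts with ZNF, ZFP, ZBTB or ZSCAN and a digit. The symbols belong to 32 ZNF, 3 ZFP, 4 ZBTB genes and 1 ZSCAN gene. They are a sample of the family, because the shortened lists pair only 2808 identifiers with a symbol. The list for 3 hours, in identifier order but for 21 displaced genes, gave 34 of them, and the displaced genes included 0 of the 40. The list for 18 hours is ordered in part by the study's own significance for high against low responders. It was the only source of 6 genes (ZBTB17, ZBTB44, ZNF219, ZNF227, ZNF292 and ZNF613), and for these 6 every value that uses the 18 hour wells is given as a description, with no test.

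The libraries come from monocyte-derived macrophages (MDMs) of lactating Holstein cows, 3 of a high and 3 of a low responder group, which were defined by nitric oxide production. Blood monocytes had been differentiated in culture with recombinant bovine GM-CSF, so that the cells are a culture model of macrophages and no tissue macrophages were measured. From each cow and time point, 1 well was left untreated as the control and 1 was exposed to Escherichia coli killed with PFA, for 3 or 18 hours. The 8 groups of phenotype, exposure and time point hold 3 libraries each, 24 in all. Each value below belongs to 1 well, and cows are named by their phenotype and the number in the library's label, which identifies a cow only within a time point, so that number 94 at 3 hours and number 94 at 18 hours need not be the same animal.

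Zinc finger proteins of the C2H2 type bind DNA through arrays of short domains that each hold a zinc ion, and they form the largest class of transcription factors in mammals. Many carry a second domain that sets their effect. A KRAB domain recruits the corepressor TRIM28 and histone methyltransferases and silences transposable elements and genes, a BTB domain pairs the protein with itself and with corepressors, and a SCAN domain joins such proteins to each other. Macrophages use some of them in inflammatory signalling, while most KRAB members have no known role there. By the domains of the human genes of the same name, 21 of the 40 were of the KRAB class, 4 of the BTB class and 2 of the SCAN class. The remaining 13 were of none of these classes.

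Totals ranged from 6297190 to 20936554 expected counts per library. The 40 genes together took between 2268 and 12218 counts of a library, so that single genes rest on few reads and counting error is part of the spread. The macrophage markers with an identifier were present in every library, with CD68 at 1170 to 2540 normalized CPM, which are counts scaled to a common library size, CD14 at 76.7 to 567 CPM and MSR1 at 24.9 to 943 CPM. Of 20 markers of other cell types only the B cell gene CD79A had an identifier, and it lay between 0.129 and 1.94 CPM. The 3 hour wells of high responder cow 94 stood apart. Its control well held 25.5 CPM of ZNF292 against 82.2 and 68.5 CPM in the other high responders, and 1.6 CPM of ZBTB41 against 11.9 and 12 CPM, and counts that rest on these wells are given below with and without them. In bulk RNA, a smaller number of expressing cells and less RNA per cell cannot be told apart.

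The zinc finger genes were transcribed at low levels. In the 12 control libraries, the median over the 40 genes of the mean level was 6.04 TPM, a transcript abundance per length, against 20 TPM over the 11233 genes with a mean of 10 or more counts, and 3 of the 40 lay above that median. Levels spanned from over 10 TPM in 10 genes, through 1 to 10 TPM in 24, to below 1 TPM in 6.

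The 5 genes of highest mean TPM over all libraries were ZNF276, ZBTB18, ZBTB44, ZNF227 and ZBTB17. ZNF276 stood at 25.2 TPM ± 5.08 (SD, n = 12) in control wells. ZBTB18, a repressor known from neuronal development, followed at 24.9 ± 8.84 TPM and ZBTB44, a BTB protein of little known function, at 20.2 ± 4.94 TPM. ZNF227, of the KRAB class, had 17.7 ± 2.26 TPM. These 4 levels overlapped between wells, so that their order is not set by the data. ZBTB17, better known as MIZ-1, the partner through which MYC represses cell cycle inhibitors, had 10.6 ± 2.43 TPM in control wells and entered the first 5 through its level in exposed wells. At the lower end, ZNF354C, ZNF514 and ZNF597, all KRAB genes, had at most 14 reads in any library and were left out of the tests by the filter on low counts, which 37 of the 40 genes passed at both time points.

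**Figure D1:**
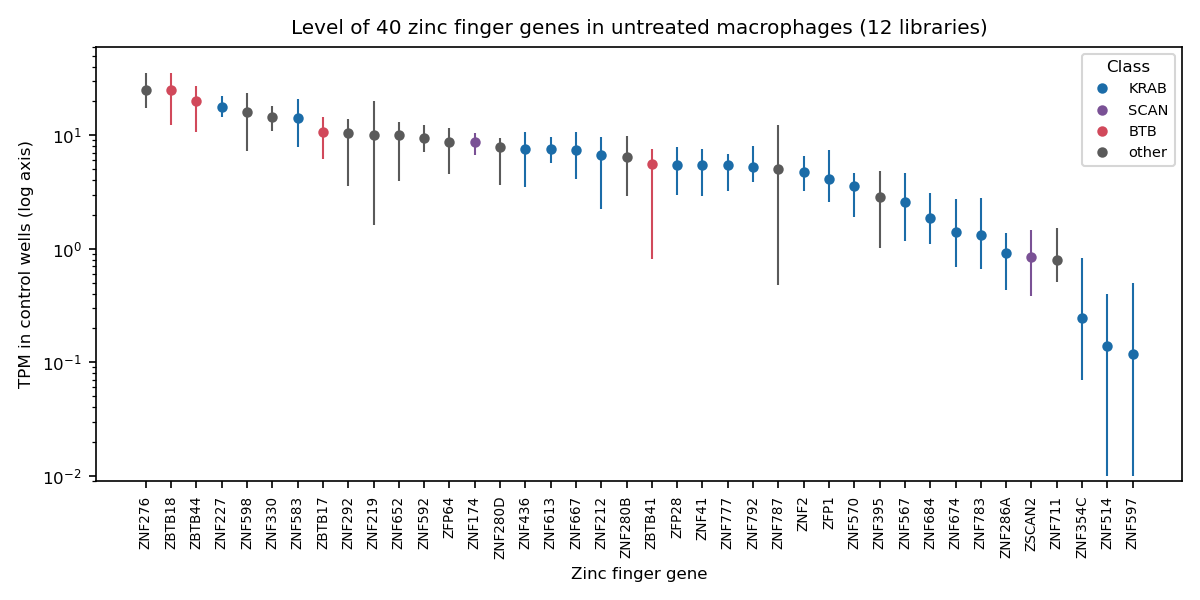
Level of the 40 zinc finger genes in the 12 control libraries, in TPM on a log axis, coloured by class. Points are means and lines run from the lowest to the highest library, with lines that reach the bottom of the axis ending at 0 TPM, and the levels fall from 25.2 TPM in ZNF276 to 0.117 TPM in ZNF597.

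No change of these genes with time in untreated culture was detected in the 12 control libraries. Between control wells of 3 and of 18 hours, 0 of 31 tested genes were called by edgeR in either direction, and 0 of 37 with the 6 genes of the 18 hour list, where called means an adjusted p below 0.05 over all genes tested and a fold change above 1.5. Over all 11581 genes tested, 0.00863% were called higher and 0.0173% lower at 18 hours. Without adjustment, 1 of the 37 had a p below 0.05, and DESeq2 called 0. With cows matched across the time points by the letter in the labels, 45 of all genes tested were called, 17 higher and 28 lower, in place of 3, and 0 of the 37, of which 2 then had an unadjusted p below 0.05. DESeq2 called 55 of all genes. The 1 gene with an unadjusted p below 0.05 in the fit without matched cows was ZNF219, a transcription factor that works with SOX9 in cartilage. Its log2 difference was 0.94 ± 0.39 (SE), and since it is among the 6 genes above this is a description. The median log2 difference of the 37 was 0.05, against 0.01 for all genes tested.

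The first comparison asks how macrophages changed the transcript levels of these genes within 3 hours of meeting the bacteria. At 3 hours 9 of the 37 genes fell and 2 rose. The falls included ZNF652 and ZNF395, both of which fell more than 3-fold, the SCAN gene ZNF174 and 5 KRAB genes, and the rises were those of ZBTB17 and the KRAB gene ZNF41. The share called lower was 24.3% of the 37, against 12% of the 11264 genes tested and 17.3% of the tested genes below the median level. The share called higher was 5.41%, against 13.5% of all genes tested. The median log2 fold change was -0.33 over the 37 genes and -0.02 over all genes tested, with 23 genes below 0 and 14 above. ZBTB17 is 1 of the 6 genes of the 18 hour list, which the 3 hour wells did not enter.

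ZNF652 (ENSBTAG00000001919), a DNA-binding repressor that works with the corepressor CBFA2T3, fell furthest. Its 6 control wells held 5.77, 11.5 and 15.2 CPM (lowest, median and highest), and its 6 exposed wells 1.81, 2.50 and 3.12 CPM. Control and exposed wells did not overlap, and the level was lower in the exposed well of 6 of 6 cows. The fold change was 4.08-fold lower, a log2 value of -2.03 ± 0.24 (SE), with an adjusted p of 0.000198.

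ZNF395 (ENSBTAG00000000536), a transcription factor described in hypoxia and in innate immune signalling, lay between 1.23 and 5.61 CPM in control wells, with a median of 2.10 CPM. Its exposed wells lay between 0.192 and 0.925 CPM, with a median of 0.704 CPM, again without overlap and lower in 6 of 6 cows. The log2 fold change was -1.89 ± 0.25, with an adjusted p of 0.00037. The exposed wells of ZNF395 held only 1 to 10 reads each. ZNF174 (ENSBTAG00000001614), a SCAN protein known to repress the growth factor genes TGFB1 and PDGFB, had 8.73, 10.7 and 15.4 CPM in control wells and 2.51, 4.67 and 6.75 CPM in exposed wells. All 6 exposed wells were below all 6 control wells, and the log2 fold change was -1.26 ± 0.18, with an adjusted p of 0.000515. ZSCAN2, the other SCAN gene, had a log2 fold change of -0.37 and was not called.

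Among the 18 tested KRAB genes, 5 fell and 1 rose, and the median log2 fold change of the class was -0.41. ZNF286A stood at 1.41, 2.43 and 3.85 CPM in control wells and at 0.575, 1.04 and 1.93 CPM in exposed wells. The ranges overlapped, but the exposed well was the lower one in each of the 6 cows. The exposed wells of ZNF286A held only 3 to 14 reads each. Its log2 fold change was -1.12 ± 0.29 with an adjusted p of 0.0124, and without low responder cow 93 of the 3 hour wells it was -0.87 with an adjusted p of 0.0714. ZNF2 went from 4.74, 6.43 and 7.23 CPM to 1.68, 2.7 and 4.27 CPM with no overlap, a log2 fold change of -1.04 ± 0.17 at an adjusted p of 0.000988. ZNF667, a KRAB repressor also known as MIPU1, went from 8.16, 14.6 and 16.0 CPM to 5.18, 5.91 and 9.64 CPM. Its wells overlapped through low responder cow 91, whose control well was the lowest, and its log2 fold change was -0.92 ± 0.14 at an adjusted p of 0.000719. The other 2 KRAB genes that fell were ZFP1 at a log2 value of -0.80 and ZNF567 at -0.67. Both lost the call without any one of several cows, among them high responder cows 92 and 93 and low responder cows 91 and 93, and also with DESeq2 and without the term per cow. Summed over the KRAB genes, the exposed wells held between 71.6% and 94.7% of the CPM of the control well of the same cow, lower in 6 of 6 cows. Over all 40 genes the sum was lower in 4 of 6 cows, with a range from 84.5% to 118% of the control well. The 118% was that of high responder cow 94, whose wells stood apart. These sums rest on the scaling of the CPM. As a share of unscaled counts, the 40 genes took 0.0441% to 0.0587% in control wells and 0.0344% to 0.0461% in exposed wells of 3 hours. At 18 hours, given as a description, the KRAB sum was lower in 1 of 6 cows, at 98.7% to 128%. The sum of all 40 was also lower in 1 of 6, at 98.1% to 125%.

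The ninth gene that fell was ZFP64, a transcription factor that drives the KMT2A promoter and has been tied to Toll-like receptor signalling in macrophages. Its log2 fold change was -0.69 ± 0.13 with an adjusted p of 0.00289, and its exposed well was lower in 6 of 6 cows. The control and exposed wells overlapped, at 8.05 to 24.7 CPM and 5.75 to 13.1 CPM.

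**Figure D2:**
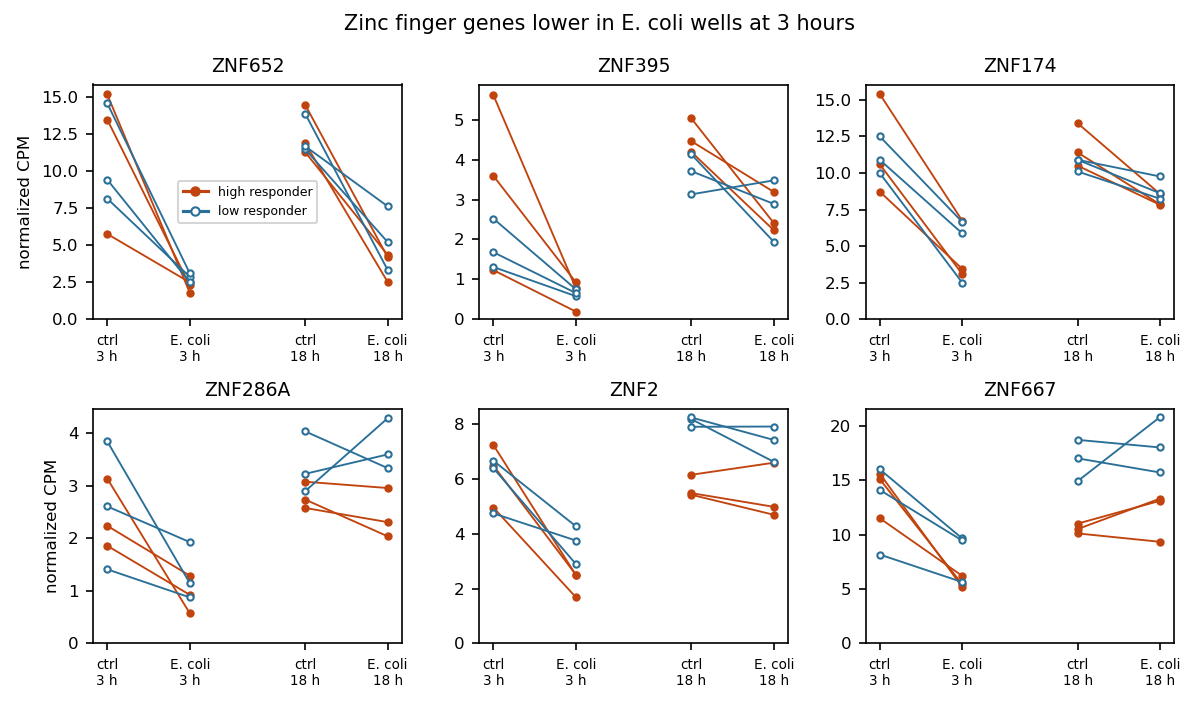
Normalized CPM of 6 zinc finger genes in each well, with control and exposed wells of a cow joined by a line, for 3 and 18 hours and for high (filled) and low (open) responders. At 3 hours every line falls, from a median of 11.5 to 2.50 CPM in ZNF652, whereas at 18 hours ZNF286A, ZNF2 and ZNF667 have lines in both directions.

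Against these falls, ZBTB17 (ENSBTAG00000018730) rose in every cow. Its control wells held 9.96, 16.6 and 24.9 CPM and its exposed wells 35.5, 41.5 and 71.8 CPM, with no overlap. The log2 fold change was 1.55 ± 0.12, a 2.92-fold rise, with an adjusted p of 1.28e-05. ZNF41 (ENSBTAG00000002113), an X-linked KRAB gene in humans, was the only KRAB gene called higher and rose from 5.00, 8.63 and 10.8 CPM to 12.1, 17.5 and 25.9 CPM. Here too the lowest exposed well stood above the highest control well, and the log2 fold change was 1.14 ± 0.15 with an adjusted p of 0.000272. Of the other BTB genes none was called. ZBTB44 had a log2 fold change of 0.48 with an adjusted p of 0.0212, short of the fold limit, and ZBTB18 of -0.47 with an adjusted p of 0.0873.

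The directions held under other scalings, but the counts did not. When libraries were scaled by their totals alone, the median of all genes tested moved to -0.45 and that of the 37 genes to -0.76. Then 21 of the 37 were called lower and 2 higher, against 4017 and 886 of the 11264 genes tested. The 11 genes called at 3 hours kept their sign and their call under that scaling. Without the 3 hour wells of high responder cow 94, 12 of the 37 genes were called lower and 3 higher. Over all 11315 genes then tested, 1588 were called lower and 1602 higher.

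The second comparison asks the same after 18 hours. Of the 31 tested genes whose listing did not depend on the 18 hour wells, 3 were then lower in exposed wells and 1 higher, 9.68% and 3.23%, against 21.4% and 15.1% of the 11759 genes tested. Among tested genes below the median level 29.2% were called lower. The genes that fell were ZNF652, ZFP64 and ZNF395, all of them outside the KRAB, BTB and SCAN classes, and the gene that rose was the KRAB gene ZNF684. The median log2 fold change was 0.07 over the 31 and -0.02 over all genes tested. With the 6 genes of the 18 hour list counted in, 4 of 37 passed the limits downward and 2 upward, and the median was 0.11. With library totals alone the medians of the 37 and of all genes tested were -0.09 and -0.21. The sign of the median thus depends on the scaling, while its place above that of all genes does not. Under that scaling 5 of the 37 passed downward and 1 upward, against 3314 and 1221 of the 11759 genes tested.

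ZNF652 still stood far below its controls, at 2.53, 4.28 and 7.64 CPM in exposed wells against 11.3, 11.8 and 14.5 CPM in control wells. The wells did not overlap, and the log2 fold change was -1.51 ± 0.18 with an adjusted p of 4.95e-05. ZFP64 fell from 13.8, 16.0 and 18.3 CPM to 7.82, 10.1 and 11.1 CPM, also with no overlap, a log2 fold change of -0.70 ± 0.09 at an adjusted p of 9.77e-05. ZNF395 lay at 1.94, 2.65 and 3.48 CPM in exposed wells against 3.13, 4.16 and 5.03 CPM in control wells. Its ranges overlapped, it was lower in 5 of 6 cows, and its log2 fold change was -0.62 ± 0.19 with an adjusted p of 0.0171. Without high responder cow 94 it fell short of the fold limit at -0.56, and without low responder cow 94 it was -0.46 with an adjusted p of 0.0604.

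The 6 genes of the 18 hour list are described here without a test. ZNF219 had a log2 fold change of -1.38 ± 0.19 (SE) at 18 hours, against -0.43 with an adjusted p of 0.184 at 3 hours. At 18 hours its control wells held 10.8, 16.6 and 24.8 CPM and its exposed wells 4.45, 6.29 and 10.8 CPM. The highest exposed well and the lowest control well belonged to low responder cow 92, the exception among the 6 cows.

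ZBTB17 again stood higher in the exposed wells of 6 of 6 cows, at 25.2, 36.8 and 46.1 CPM in exposed wells against 14.7, 17.5 and 21.3 CPM in control wells. Its log2 fold change was 1.02 ± 0.09. The other 4 had values above 0, at 0.48 ± 0.08 for ZBTB44, 0.46 ± 0.07 for the abundant ZNF227, 0.35 ± 0.10 for the KRAB gene ZNF613 and 0.26 ± 0.09 for ZNF292, a large zinc finger protein with tumour suppressor activity.

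ZNF684 is a KRAB gene with few reads, 453 over all 24 libraries. Its wells overlapped, at 0.761 to 2.10 CPM without and 1.03 to 3.25 CPM with bacteria, and the level was higher in the exposed well of 6 of 6 cows. Its log2 fold change of 0.64 ± 0.22 had an adjusted p of 0.0235. That call was lost without high responder cow 93, at 0.52 and an adjusted p of 0.116, and without low responder cow 94, at 0.56 and an adjusted p of 0.0793. It was also lost with DESeq2, without the term per cow, with library totals alone and with a mean of at least 50 counts, a limit it did not reach. Another 5 of the 31 genes passed the p threshold upward with less than a 1.5-fold change. They were ZNF436 at a log2 value of 0.58, ZNF570 and ZNF592 at 0.51, ZBTB41 at 0.42 and ZNF280D at 0.41. Of all 11759 genes tested, 3770 passed the p threshold upward, and 1770 of these also passed the fold limit.

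**Figure D3:**
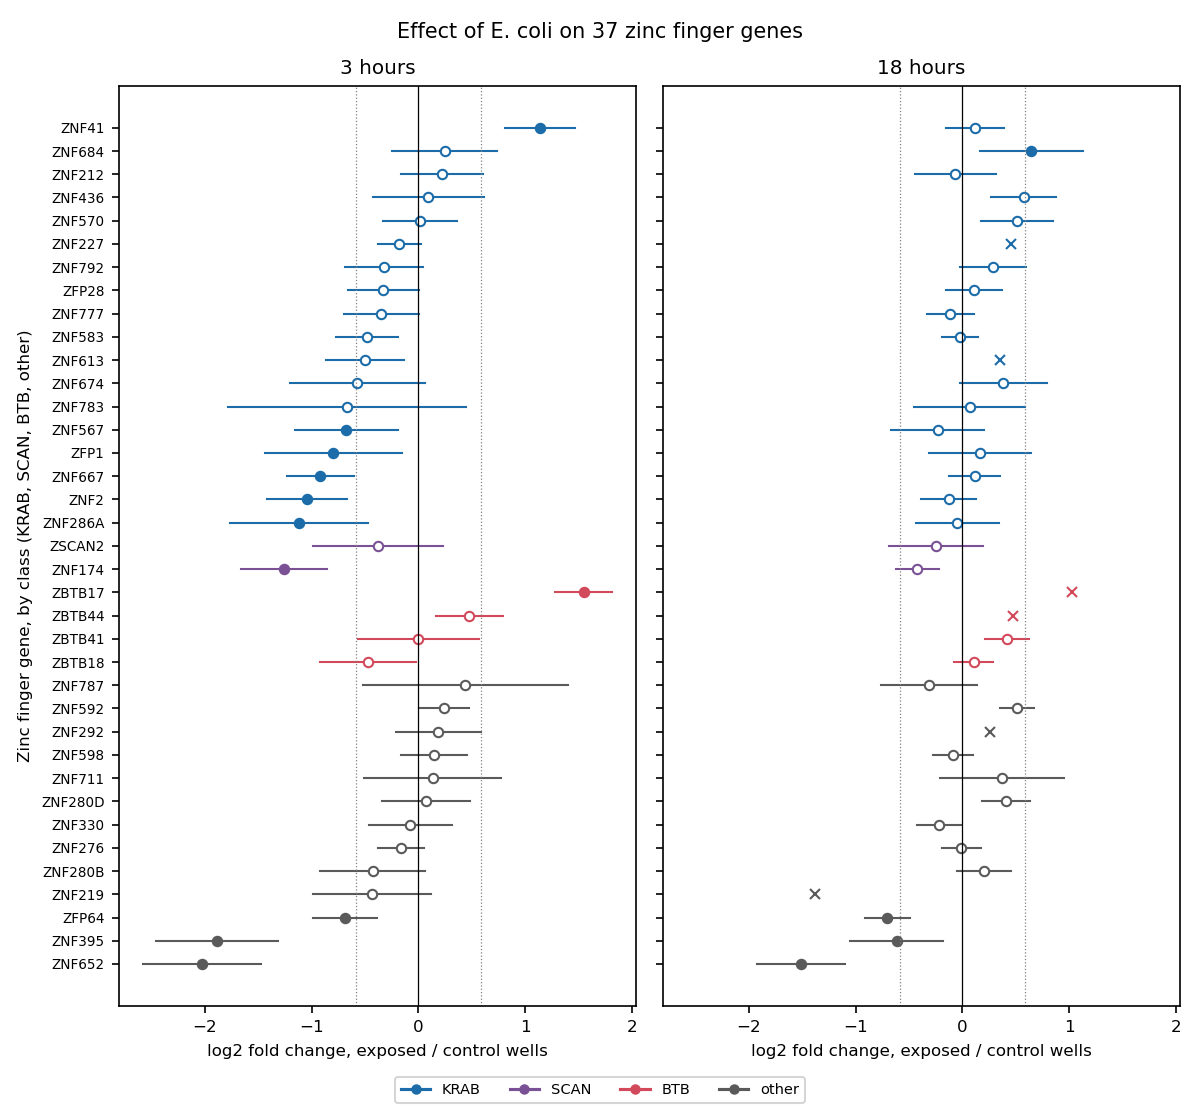
Log2 fold change of 37 zinc finger genes between exposed and control wells at 3 hours (left) and 18 hours (right), averaged over both phenotypes, with 95% intervals and coloured by class. Filled points are called, crosses are the 6 genes of the 18 hour list, drawn at 18 hours without interval or call, dotted lines mark a 1.5-fold change, and 9 filled points lie below 0 on the left against 3 on the right.

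The third comparison tests whether the response itself differed between the time points, in a fit of all 24 libraries. The response of 10 of the 31 genes was higher at 18 than at 3 hours and that of 1 was lower, 32.3% and 3.23%, against 10.7% and 16.1% of the 11905 genes tested. The median difference was 0.49 over the 31 and 0.01 over all genes tested. With the 6 genes of the 18 hour list counted in, 12 of 37 passed the limits upward and 1 downward, and the median was 0.48. With library totals alone the medians of the 37 and of all genes rose to 0.67 and 0.19. Then 15 of the 37 were higher and 1 lower, against 2126 and 1490 of the 11905 genes tested. Of the 10 genes with a higher response among the 31, 6 were of the KRAB class, and of the 12 among the 37, 8 were. That class made up 18 of the 37 tested genes. The 2 time points are separate wells. This comparison uses the same control and exposed wells as both of the comparisons above, and is no independent count of them.

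ZNF395 had the largest difference, 1.32 ± 0.32 (SE) on the log2 scale with an adjusted p of 0.00538, going from -1.89 at 3 hours to -0.62 at 18 hours. ZNF286A went from -1.12 to -0.05, a difference of 1.12 ± 0.32 with an adjusted p of 0.0141. It was 0.86 with an adjusted p of 0.0634 without low responder cow 93 of the 3 hour wells. The values of ZNF395 and ZNF286A also rest on few reads, 1 to 10 and 3 to 14 in the exposed wells of 3 hours. Both lost the call with a mean of at least 50 counts, a limit that neither reached. ZNF667 went from -0.92 to 0.12, a difference of 1.08 ± 0.17 with an adjusted p of 0.000248. At 18 hours its exposed well was lower in 3 cows and higher in 3.

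ZFP1 changed from -0.80 to 0.17 and ZNF674, another X-linked KRAB gene in humans, from -0.57 to 0.38. Their differences of 1.01 and 1.00 had adjusted p values of 0.0404 and 0.029. Both calls rest on few reads and were lost when any of several cows was left out, among them high responder cows 92 and 93 of the 3 hour wells, where ZFP1 had adjusted p values of 0.0795 and 0.105 and ZNF674 of 0.0566 and 0.061. ZNF2 went from -1.04 to -0.13, a difference of 0.96 ± 0.18 with an adjusted p of 0.00106. ZNF41 was the gene that went the other way. Its rise of 1.14 at 3 hours was followed by a value of 0.12 at 18 hours, a difference of -0.97 ± 0.19 with an adjusted p of 0.00106, and its 18 hour wells overlapped at 5.75 to 9.70 CPM without and 5.41 to 10.1 CPM with bacteria.

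The other 4 genes with a higher response at 18 hours were ZNF174 at a log2 difference of 0.87, ZNF280B at 0.68, ZNF792 at 0.66 and ZBTB18 at 0.62. When the wells of 1 cow at 1 time point were left out in turn, in 12 settings, ZNF395, ZNF667, ZNF2, ZNF174 and ZNF41 were called in all 12, ZNF286A in 11 and ZNF792 in 9, but ZNF674 in 6, ZNF280B and ZFP1 in 4 and ZBTB18 in 3. ZNF280B and ZBTB18 also lost the call with RLE size factors and without the term per cow. Among the 6 genes of the 18 hour list, given without a test, the differences were 0.90 ± 0.18 for ZNF613, 0.68 ± 0.11 for ZNF227, 0.12 ± 0.21 for ZNF292, 0.05 ± 0.17 for ZBTB44, -0.47 ± 0.16 for ZBTB17 and -0.90 ± 0.34 for ZNF219. ZNF174 remained the lower in exposed wells in 6 of 6 cows at 18 hours, at 7.82 to 9.76 CPM against 10.1 to 13.4 CPM, but its log2 value of -0.42 was below the fold limit. For ZNF652, the difference of 0.57 between the time points had an adjusted p of 0.194, and for ZFP64 the values at the 2 time points were nearly equal, with a difference of 0.04. Over all 37, leaving out high responder cow 92 of the 3 hour wells lowered the number of genes with a higher response from 12 to 7. Leaving out high responder cow 94 of the same wells raised it to 18 and the number with a lower response from 1 to 4. Over all genes tested, those with a higher response numbered 1274 in the main fit, 1161 without cow 92 and 1549 without cow 94. Those with a lower response numbered 1911 in the main fit and 2085 without cow 94.

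**Figure D4:**
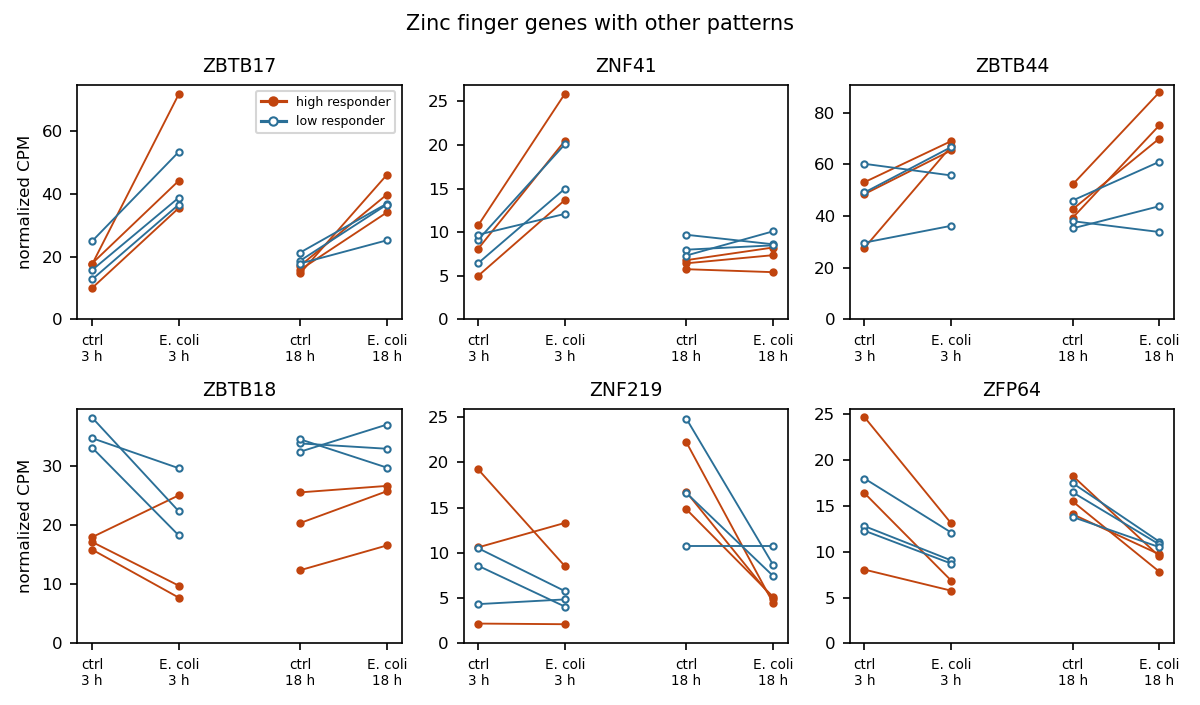
Normalized CPM of 6 further zinc finger genes in each well, drawn as control and exposed wells joined by cow, for high (filled) and low (open) responders. ZBTB17 rises at both time points, ZNF41 at 3 hours, and ZBTB18 shows control wells of high responders at 12.4 to 25.6 CPM below those of low responders at 32.5 to 38.3 CPM.

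The fourth comparison is the one the study was designed for, the response of high responders minus that of low responders. At 3 hours, edgeR called 0 of the 37 zinc finger genes in either direction, against 0.178% of all genes tested called higher and 0% called lower. These shares rest on 20 genes. Over all genes tested, 0 were called when high responder cow 93 or low responder cow 91, 92 or 93 was left out, 506 without high responder cow 94 (443 higher and 63 lower) and 189 with DESeq2, while the zinc finger genes called remained at 0 in each. Without adjustment 3 of the 37 had a p below 0.05, among 1430 of the 11264 genes tested. These 3, named after their values were seen, were ZNF592 with a difference of 0.87, ZNF2 with -0.76 and ZNF667 with -0.64. ZNF592, a partner of ZMYND8 and ZNF687 in a chromatin complex, had a log2 fold change of 0.68 in high and -0.19 in low responders, and its adjusted p was 0.147. In the fit of all 24 libraries together it was the 1 gene called of the 37. That fit called 165 of all 11905 genes tested, 144 higher and 21 lower, against 20 in the main fit. Of the 37 intervals for the difference, 1 lay within 1.5-fold in both directions, so that for the other genes a difference beyond 1.5-fold lies within the interval.

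At 18 hours, 31 tested genes had entered independently of this contrast. For them edgeR called 0 in either direction, against 1.34% of all genes tested called higher and 0.281% called lower. The number with an unadjusted p below 0.05 was 0 of 31, among 2067 of the 11759 genes tested. DESeq2 called 0 of the 31 as well, and 395 of the 11759, 328 higher and 67 lower. The 95% intervals lay within 1.5-fold for 6 of the 31, and their median width was 1.09 on the log2 scale.

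The 6 genes taken only from the list ordered by this contrast are described with no test. ZBTB17 had a log2 fold change of 1.31 in high and 0.74 in low responders. Its exposed wells held 39.8, 34.1 and 46.1 CPM in high responder cows 91, 93 and 94 and 36.9, 36.6 and 25.2 CPM in low responder cows 91, 92 and 94. Exposed wells of ZBTB44 held 70.0, 75.1 and 87.9 CPM in high responders and 43.8, 33.8 and 61.0 CPM in low responders. For ZBTB44 the phenotypes did not overlap in exposed wells, whereas for ZBTB17 they did.

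Exposed wells of ZNF613 held 11.8, 16.1 and 17.3 CPM in high responders and 11.1, 12 and 13.7 CPM in low responders, while its control wells were lower in high responders, at 8.50, 8.31 and 10.2 CPM against 11, 13.5 and 12 CPM. ZNF227 had exposed wells of 52.1, 53.1 and 40.4 CPM and of 35.4, 38.2 and 43.0 CPM. ZNF292 had 86.9, 87.3 and 107 CPM against 66.1, 51.9 and 78.3 CPM. In ZNF292 all 3 high responder wells were above all 3 low responder wells, and in ZNF613 and ZNF227 the phenotypes overlapped in exposed wells. ZNF219 was the gene of the opposite sign, and its exposed wells held 5.13, 4.88 and 4.45 CPM in high responders, all below the 8.67, 10.8 and 7.44 CPM of low responders.

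The log2 differences of these 6 genes at 18 hours were 0.74 for ZNF613, 0.63 for ZBTB44, 0.57 for ZBTB17, 0.49 for ZNF227, 0.43 for ZNF292 and -0.96 for ZNF219. The 3 hour wells took no part in that list. There the differences were -0.47 for ZNF613, 0.54 for ZBTB44, 0.45 for ZBTB17, -0.01 for ZNF227, 0.75 for ZNF292 and 0.24 for ZNF219, none with an adjusted p below 0.411. The sign at 3 hours was that of 18 hours for ZBTB44, ZBTB17 and ZNF292 and the opposite for ZNF613, ZNF227 and ZNF219.

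**Figure D5:**
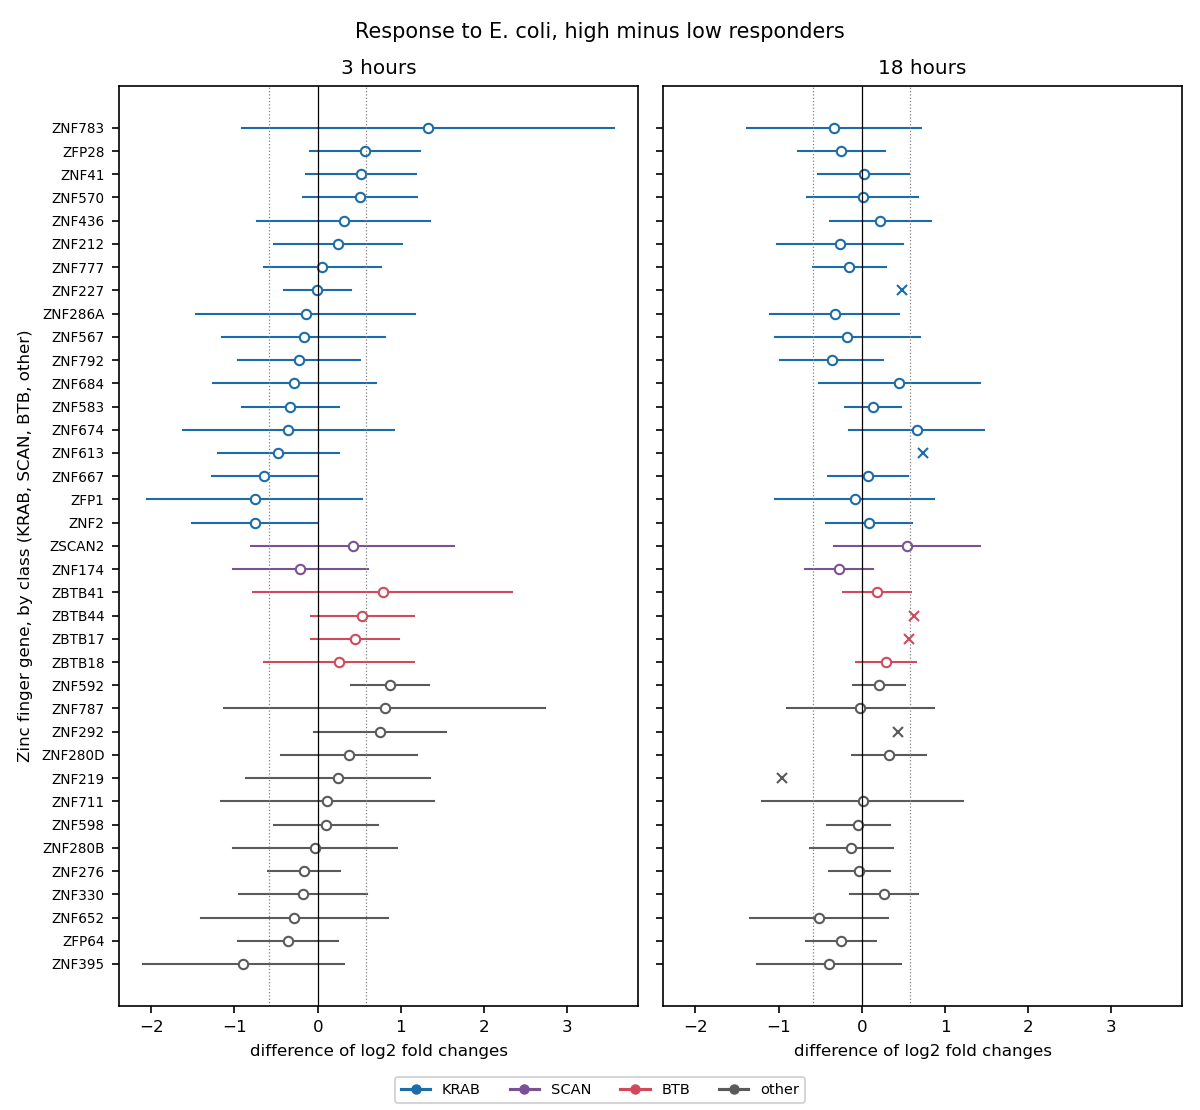
Difference of the log2 fold change between high and low responders for 37 zinc finger genes at 3 hours (left) and 18 hours (right), with 95% intervals, coloured by class and drawn with dotted lines at 1.5-fold. Open points are tested genes, of which none was called, crosses are the 6 genes listed by this contrast, drawn at 18 hours without interval or call, and at 18 hours the values run from -0.96 in ZNF219 to 0.74 in ZNF613, both of them crosses.

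The untreated wells of ZBTB18 lay lower in high than in low responders. Its control wells at 3 hours held 17.2, 15.9 and 18.0 CPM in high responder cows 92, 93 and 94 and 34.8, 33.2 and 38.3 CPM in low responder cows 91, 92 and 93. At 18 hours they held 20.4, 25.6 and 12.4 CPM and 33.9, 32.5 and 34.6 CPM. The phenotypes did not overlap in control wells at either time point. This contrast of control wells was noticed in the values and was not tested, and the response of ZBTB18 to the bacteria differed by 0.26 at 3 hours and 0.29 at 18 hours, with adjusted p values of 0.817 and 0.398. Control wells of other members also did not overlap at 18 hours. ZNF2 had 5.42 to 6.15 CPM in high and 7.9 to 8.24 CPM in low responders, and ZNF674 2.29 to 2.4 CPM and 3.62 to 5.61 CPM. The share of all genes without such overlap was not counted, so the pattern is not shown to be particular to ZBTB18.

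Zinc finger genes often lie in clusters, and by the order of genes in a RefSeq annotation of another assembly 3 pairs and 1 run of 3 of the 40 were direct neighbours. ZNF667 and ZNF583, both KRAB genes, had log2 fold changes of -0.92 and -0.48 at 3 hours and 0.12 and -0.02 at 18 hours. ZNF212, ZNF783 and ZNF777, which lie side by side, had 0.22, -0.67 and -0.35 at 3 hours and none was called. The partners ZNF597 of ZNF174 and ZNF514 of ZNF2 had too few reads to test.

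Of 38 cofactors and partners of zinc finger proteins listed for this comparison, 6 had an identifier. Among the 5 of KRAB silencing, the DNA methyltransferase DNMT1 fell at 3 hours with a log2 value of -0.67 and MORC3, a chromatin ATPase that restrains retroelements, rose with 1.13. At 18 hours UHRF1, which guides DNMT1 to replicated DNA, fell with -3.27, and its response differed between high and low responders by -1.28 with an adjusted p of 0.0138. SETDB1, the methyltransferase that KRAB proteins recruit, had 0.41 and 0.40 and CBX1, a heterochromatin protein, -0.13 and 0.25 at 3 and 18 hours, and neither was called. ASCC2, which acts downstream of the ribosome collision sensor ZNF598, had -0.06 and -0.38 and was not called.

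Macrophage markers moved with the exposure as well. CD14 and MSR1 had log2 fold changes of -0.09 and -0.14 at 3 hours, when most of the zinc finger calls were made, and fell at 18 hours with -0.75 and -3.76, while CD68 had 0.10 at 3 hours and rose with 0.61 at 18 hours. CD79A had 0.08 and 0.16. The part of these shifts in the values of the zinc finger genes was not tested. NOS2, which makes the nitric oxide that defined the phenotypes, rose in the same wells with log2 values of 8.01 and 9.57.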

How the data were processed

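The authors made stranded mRNA libraries, checked reads with FastQC 0.11.5 after trimming in Trimmomatic, and ran STAR on the UMD 3.1 assembly followed by RSEM. The deposited tables give, per gene and library, the expected count (estimated reads, not normalized) and TPM (relative abundance per effective length). Depth ranged from 6297190 to 20936554 expected counts.

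Expected counts were rounded. 0 of the 40 genes had a fractional count in any library. Fits used edgeR 4.0.16 in R 4.3.3 (quasi-likelihood test, TMM factors, the default filter on low counts, Benjamini-Hochberg adjustment over all genes tested), separately for 3 and 18 hours, with a term per cow and an E. coli effect per phenotype. The effect reported is the mean of both. All 24 libraries entered the difference between time points, and the 12 control libraries, with phenotype as a covariate, the comparison of control wells. Called means an adjusted p below 0.05 and a fold change above 1.5. DESeq2 1.42.0 (the authors used 1.22.2) was an alternative. CPM were scaled by TMM factors over all 24 libraries, because scaling by totals shifts all genes in exposed wells. Levels of different genes were compared by the deposited TPM. SE and 95% intervals come from the same fits.

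Within a time point, wells of a cow share a label number, and across time points the numbers were not matched. Same-numbered wells deviated together, with 12 correlations of 0.327 to 0.732, against -0.568 to 0.00521 for 24 others. Deviations were taken from the mean of the few wells of a group, which pushes the 24 others down when the 12 are positive. The 24 are thus no independent comparison. Libraries within a group differed beyond counting noise, with chi-square per degree of freedom of at least 15.68.

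Members and lists were chosen with earlier results of these data known. Named with values were the 5 genes of highest mean TPM, up to 6 called genes per direction and comparison, the 6 genes of the significance-ordered list, and up to 4 called partners per direction. Other genes with values were named after they were seen. Gene sequences and the wider family were not analysed here.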

Additional observations from a re-analysis of the deposited data

Results flagged for a closer look

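A test of the difference itself, in the fit of all 24 libraries, was run on 31 zinc finger genes. In 11 of them the response to E. coli differed between 18 and 3 hours. It was higher at 18 hours in 32.3% and lower in 3.23%, against 10.7% and 16.1% of the 11905 genes tested. With the wells of 1 cow at 1 time point left out, ZNF674 kept the call in 6 of 12 settings, ZFP1 and ZNF280B in 4 and ZBTB18 in 3. The log2 differences (18 hours minus 3 hours) were 1.32 for ZNF395, 1.12 for ZNF286A, 1.08 for ZNF667, 1.01 for ZFP1, 1.00 for ZNF674, 0.96 for ZNF2, 0.87 for ZNF174, 0.68 for ZNF280B, 0.66 for ZNF792, 0.62 for ZBTB18 and -0.97 for ZNF41.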

How the results depend on the processing

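Of 547 values of called genes recomputed under the alternatives, 484 kept their direction and, where tested, their side of the threshold, 63 lost the call and 0 turned. Called genes that did not reach a mean of 50 counts have no value under that filter and are not among the 547. The looser p threshold and the lack of a minimum fold change could not lose a call, so the 484 include values that were bound to stay. Of the 63, 49 were lost without 1 cow, most often by ZFP1, ZNF567, ZNF674, ZNF280B and ZBTB18. The comparisons at 1 time point were run without each of its 6 cows, the difference between time points without the wells of 1 cow at 1 time point, and that of control wells without each control well. Counts here are over 37 genes, with the 6 of the 18 hour list, except for high minus low responders at 18 hours, which is over 31. In counts that use the 18 hour wells, these 6 enter as a description, and called then means only that the limits were passed. At 3 hours the genes called lower numbered 4 with a mean of at least 50 counts, where fewer genes were tested, 21 with library totals alone, and 6 to 12 without 1 cow. Over all genes tested, the numbers called lower in these settings were 1037 of 9189, 4017 of 11264, and 1170 to 1588, against 1350 of 11264 in the main fit. Genes called higher at 3 hours numbered 1 without the 6 genes of the significance-ordered list, which hold ZBTB17, and 2 to 3 without 1 cow. Without 1 cow, 1461 to 1602 of all genes tested were called higher, against 1522 in the main fit. At 18 hours with no minimum fold change, 3770 of all 11759 genes tested were called higher. The zinc finger genes called higher then numbered 11, among them ZBTB17, ZBTB44, ZNF227, ZNF292 and ZNF613 of the 18 hour list. They numbered 1 with the 34 genes of the identifier-ordered list, which was ZNF684. They also numbered 1, ZBTB17 of the 18 hour list, with a mean of at least 50 counts, no replicate block or library totals alone. The same gene was the 1 left without high responder cow 93 or without low responder cow 94 of the 18 hour wells. Over all genes tested, 1348 were called higher with a mean of at least 50 counts, 1640 with no replicate block and 1221 with library totals alone. Without 1 cow the zinc finger genes called higher numbered 1 to 4, with 4 reached without high responder cow 91 of the 18 hour wells. All genes called higher then numbered 1719 to 1829. Genes called lower at 18 hours numbered 3 to 4 without 1 cow, against 2389 to 2583 of all genes tested. The genes with a higher response at 18 than at 3 hours numbered 7 to 18 without 1 cow, and those with a lower response 1 to 4. Over all genes tested these ranges were 1106 to 1549 and 1830 to 2085. The zinc finger genes with a lower response numbered 2 with RLE size factors, no filter on low counts, no minimum fold change, an adjusted p below 0.1, a mean of at least 50 counts, or DESeq2. Over all genes tested, 1608 to 2507 had a lower response in those settings. For high minus low responders, the genes called higher numbered 1 at 3 hours with all 24 libraries in 1 fit, against 144 of all 11905 genes tested. The cause of these changes was not tested where none is named. The replicate block pairs wells by cow. Without it 6 genes were called lower at 3 hours and 9 had a higher response at 18 hours. Over all genes tested, those called lower at 3 hours went from 1350 to 999 without the block. Those with a higher response at 18 hours went from 1274 to 898. With cows also matched across time points by the letter in the labels, added after seeing the data, 12 genes had a higher response and 1 a lower one. Over all 11905 genes tested, these were 1222 and 1798. Library totals alone were also added after seeing the data. Depth limits the genes with few reads, and with 3 cows per phenotype the interval of most differences between the phenotypes reached beyond 1.5-fold.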
